A study of Mus musculus with 6 samples.

Results

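The genes described here are hepatocyte genes known for expression around the central vein of the liver lobule that do not encode cytochrome P450 enzymes. They were chosen by name: Glul, Oat, Slc1a2, Rhbg, Lgr5, Axin2, Tbx3, Lhpp, Slc22a3 and Gulo. This choice was made with earlier results of these data known, so comparisons of these genes with all tested genes are descriptions and not tests. Of these 10 genes, 9 were found by symbol among the 39179 gene identifiers of each library and all 9 were tested; Rhbg was not analysed here. RNA was sequenced from 3 livers with nonalcoholic steatohepatitis (NASH 1 to 3) and 3 livers with isolated steatosis (steatosis 1 to 3), picked at random within each class. Both groups were C57BL/6J mice fed the same high-fat diet (60% of calories as fat) for 21 weeks from 5 weeks of age and were obese. They were told apart by the histology of a liver biopsy, so the groups are disease classes within 1 diet and not a treatment. No lean group was analysed here. The labels imply, but do not state, that each library is a separate mouse. The p-values set the group difference against the spread between these libraries.

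The liver lobule is zoned. WNT ligands and R-spondins from endothelial cells of the central vein keep β-catenin active in the hepatocytes next to it, and this programme switches on genes of glutamine synthesis and xenobiotic metabolism there. Hepatocytes near the portal vein make urea and break down glutamine, and the pericentral cells take up the ammonium and glutamate that escape them. Whole-liver RNA holds no position, so the zonal label of these genes is background and could not be checked here. In such bulk samples, fewer cells of a type and less RNA per cell cannot be told apart. The samples did carry the 8 hepatocyte markers, whose summed level was 9298 to 11477 CPM (library sizes scaled by TMM) in NASH livers and 11307 to 12061 CPM in steatosis livers.

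RefSeq promoter windows of GRCm38.p6, from 250 bases before to 50 bases after a start site, matched 5 of the 10 genes. The windows of 4 are shown because these genes had lower levels in all 3 NASH livers than in any steatosis liver. Capitals mark the core letters CTTTGA of the TCF/LEF motif, the site type used by the DNA-binding partners of β-catenin, searched on both strands (TCAAAG on the strand shown is a match on the other one).
Glul, chr1:153899679-153899978, plus strand: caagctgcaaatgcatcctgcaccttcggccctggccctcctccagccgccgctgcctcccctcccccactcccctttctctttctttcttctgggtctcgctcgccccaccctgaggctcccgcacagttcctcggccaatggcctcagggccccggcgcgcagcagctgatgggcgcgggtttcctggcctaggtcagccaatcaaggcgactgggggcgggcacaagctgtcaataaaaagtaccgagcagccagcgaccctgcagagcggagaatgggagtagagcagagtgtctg
Oat, chr7:132576349-132576648, minus strand: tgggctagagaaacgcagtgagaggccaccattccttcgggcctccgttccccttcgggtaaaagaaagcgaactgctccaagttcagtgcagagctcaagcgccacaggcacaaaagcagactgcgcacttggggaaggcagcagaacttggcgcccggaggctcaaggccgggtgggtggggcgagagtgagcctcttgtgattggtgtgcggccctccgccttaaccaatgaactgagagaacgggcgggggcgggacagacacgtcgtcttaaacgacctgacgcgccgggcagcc
Slc1a2, chr2:102706188-102706487, plus strand: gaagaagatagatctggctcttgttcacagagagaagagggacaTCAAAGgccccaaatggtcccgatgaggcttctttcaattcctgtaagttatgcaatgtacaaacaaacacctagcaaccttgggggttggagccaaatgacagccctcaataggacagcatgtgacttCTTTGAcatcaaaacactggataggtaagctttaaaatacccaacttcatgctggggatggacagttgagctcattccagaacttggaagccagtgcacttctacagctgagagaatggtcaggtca
Slc22a3, chr17:12507655-12507954, minus strand: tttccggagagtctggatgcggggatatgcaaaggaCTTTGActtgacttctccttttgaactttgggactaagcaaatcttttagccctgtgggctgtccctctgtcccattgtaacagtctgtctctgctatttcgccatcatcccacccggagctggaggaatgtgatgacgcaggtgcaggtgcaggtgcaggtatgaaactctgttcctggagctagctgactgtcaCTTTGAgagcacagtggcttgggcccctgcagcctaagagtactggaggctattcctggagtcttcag
The Slc1a2 window held the core at positions -206 and -77 from the start site, and the Slc22a3 window at -214 and -18. The letters were not found in the Glul, Oat and Axin2 windows. Of 32851 mouse promoter windows of this length, 16% held at least 1 such core, so a match by itself is common. The Slc1a2 window belongs to a start site 47779 bases downstream of the 5′ end of the gene, where the annotation also starts a transcript. TATAAA, also searched on both strands, was found in none of the 5 windows and in 13.6% of all windows.

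The libraries held 13909238 to 17577354 counts in NASH and 14883514 to 18002095 in steatosis. Mitochondrial genes took 62.0% to 83.9% of the counts in NASH and 68.3% to 77.9% in steatosis, and rRNA-like loci took 22.3% of NASH 3 and 8.96% of steatosis 2 but at most 1.06% of the others. All other genes were left with 2185922 to 2719869 counts in NASH livers and 3378730 to 5149189 in steatosis livers, so counting error is larger in the NASH values. Because NASH 3 and steatosis 2 stand apart, results are also given without both. Among 11375 tested genes, edgeR's quasi-likelihood test called 169 higher in NASH and 379 lower at a Benjamini-Hochberg adjusted p under 0.05, which is 1.49% and 3.33% of the tested genes. Without NASH 3 and steatosis 2 the test called 17 higher and 19 lower.

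Across the 9 measured genes, 7 had lower fitted levels in NASH, against 49.4% of all tested genes. For 6 of these 7 genes all 3 NASH livers lay below all 3 steatosis livers. Over all tested genes, 16.2% showed that separation downward and 13.1% upward, and none of the 9 genes showed it upward. The median log2 fold change (NASH over steatosis) was -0.89 for the 9 genes, against 0.01 for all tested genes. Only Slc1a2 passed the test, as 1 of 9 genes lower in NASH against a background of 3.33%, and 0 of 9 were higher against 1.49%. At an unadjusted p under 0.05 there were 5 of 9 genes lower in NASH and 0 higher, against 12.9% and 10.2% of all tested genes. DESeq2 called 4 genes lower (Glul, Oat, Slc1a2 and Lhpp) and 0 higher, where it called 5.47% of all genes lower and 2.94% higher. limma-voom called 3 lower (Glul, Oat and Slc1a2) and 0 higher, where it called 3.24% of all genes lower and 1.4% higher. The median lay between -0.73 and -1.07 under the alternatives run. Without NASH 3 and steatosis 2 no gene of the 9 was called, and the median was -0.74.

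**Figure D1:**
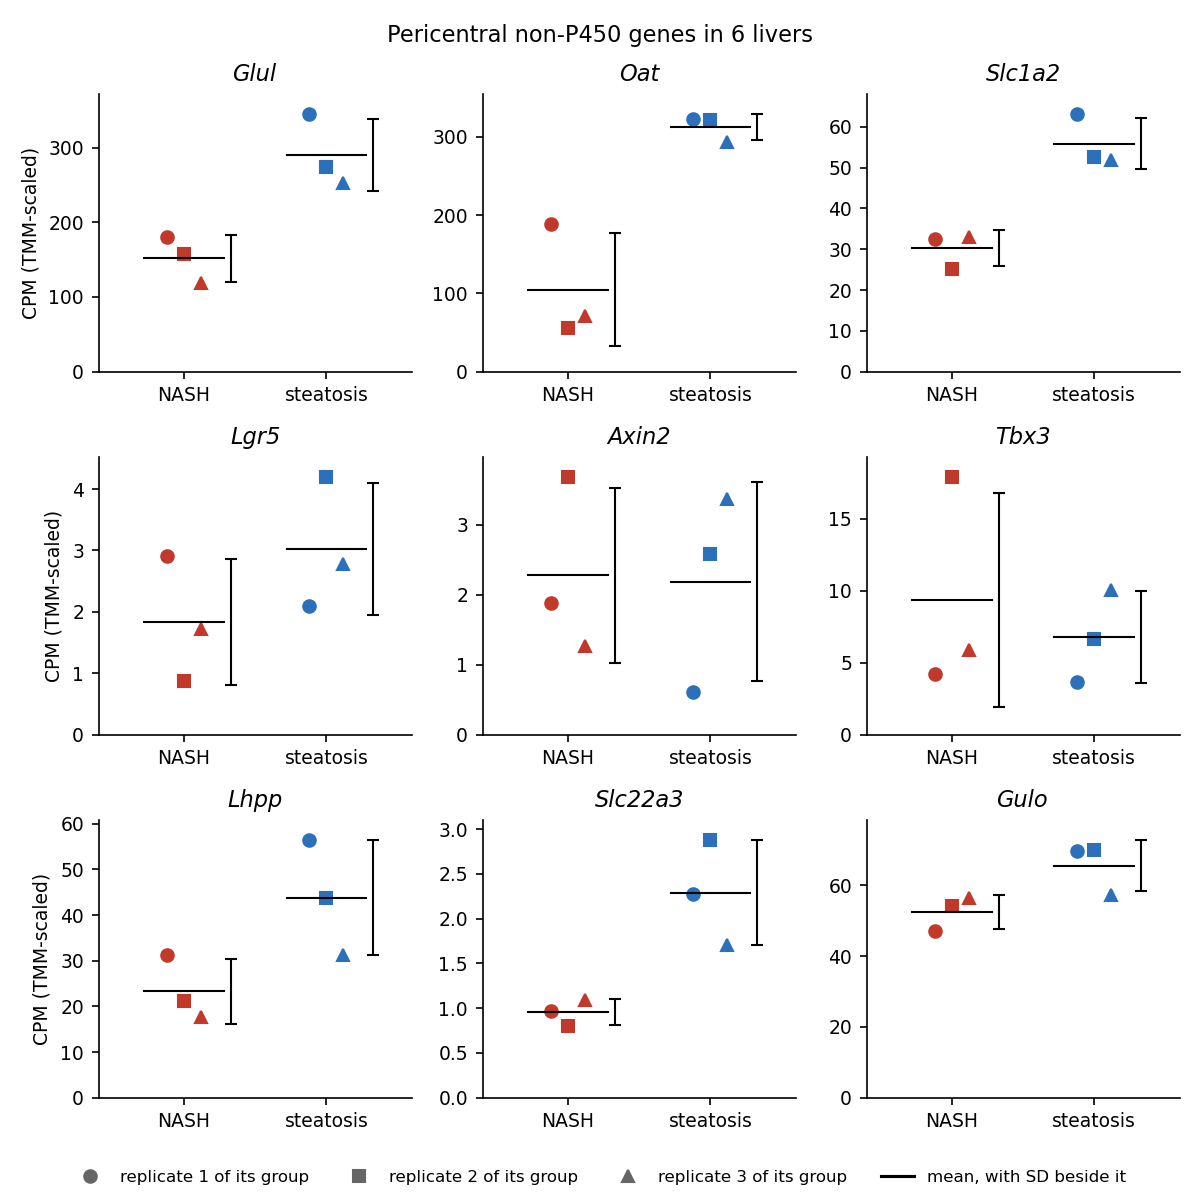
Level of each of the 9 measured genes in CPM on TMM-scaled library sizes (y axis, linear, from 0), with 1 point per liver, NASH on the left and steatosis on the right. Horizontal lines are group means and the bars beside them ± SD over 3 livers. The groups do not overlap for Glul, Oat, Slc1a2, Lhpp, Slc22a3 and Gulo, and do overlap for Lgr5, Axin2 and Tbx3.

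Glul encodes glutamine synthetase, which joins ammonium to glutamate and is the classical marker of the innermost ring of pericentral hepatocytes. The gene lies on chromosome 1 (GRCm38, 153899944 to 153909723, plus strand). Its level was 181, 157 and 118 CPM in NASH 1, 2 and 3, against 345, 274 and 252 CPM in steatosis 1, 2 and 3. Every NASH liver was below every steatosis liver, with a gap between the highest NASH and the lowest steatosis value larger than either SD. The mean was 152 ± 31.5 CPM in NASH and 290 ± 48.5 CPM in steatosis (SD, n = 3 each), a log2 fold change of -0.93 (SE 0.25). By edgeR's quasi-likelihood test Glul was not called (Benjamini-Hochberg adjusted p = 0.0633). Under DESeq2 the adjusted p was 0.00271 and under limma-voom 0.0471, within a range of 0.00271 to 0.295 over the 16 alternatives. With each library left out in turn the log2 fold change was -0.77 to -1.07.

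Oat encodes ornithine aminotransferase, a mitochondrial enzyme that links ornithine to glutamate and proline and is found in the same pericentral cells as glutamine synthetase. It lies on chromosome 7 (132557478 to 132576398, minus strand), and its window above is that of the annotated 5′ end. Oat showed 188, 55.2 and 71.0 CPM in NASH 1, 2 and 3, against 323, 321 and 293 CPM in steatosis 1, 2 and 3. The steatosis livers were close together, while NASH 1 stood well above the other NASH livers and still below all steatosis livers. The mean was 105 ± 72.6 CPM in NASH and 312 ± 16.7 CPM in steatosis (SD, n = 3 each). This gave a log2 change of -1.58 (SE 0.41), the lowest of the 9 genes in this fit, and its adjusted p by edgeR's quasi-likelihood test was 0.0558. Without NASH 1 it was -2.30 with an edgeR adjusted p of 0.0135. With all 6 libraries, DESeq2 (adjusted p = 0.000977) and limma-voom (adjusted p = 0.0356) called Oat lower. The adjusted p of Oat ranged from 3.85e-06 without a filter on low counts to 0.268 without NASH 3 and steatosis 2.

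Slc1a2 encodes a high-affinity glutamate transporter, best known from astrocytes and in liver a marker of the cells that make glutamine. It lies on chromosome 2 (102658659 to 102790784, plus strand). Its level was 32.4, 25.1 and 33.05 CPM in NASH 1, 2 and 3, against 63.1, 52.6 and 51.9 CPM in steatosis 1, 2 and 3. The NASH livers lay together at 54.0% of the steatosis level in the fit, with no overlap. The mean was 30.2 ± 4.40 CPM in NASH and 55.8 ± 6.27 CPM in steatosis (SD, n = 3 each). Slc1a2 had a log2 fold change of -0.89 (SE 0.21). The adjusted p by edgeR's quasi-likelihood test was 0.0428, so Slc1a2 was called lower in the NASH livers. The call did not survive the loss of any single library: leaving out NASH 1, 2 or 3 gave edgeR adjusted p values of 0.0933, 0.128 and 0.0794, and leaving out steatosis 1, 2 or 3 gave 0.137, 0.119 and 0.0613. It was also lost without NASH 3 and steatosis 2 (adjusted p = 0.183) and on the library size of other genes without TMM (adjusted p = 0.0602). The log2 fold change itself stayed between -0.75 and -0.999 in all 16 alternatives, and the adjusted p reached 0.00233 at its lowest.

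**Figure D2:**
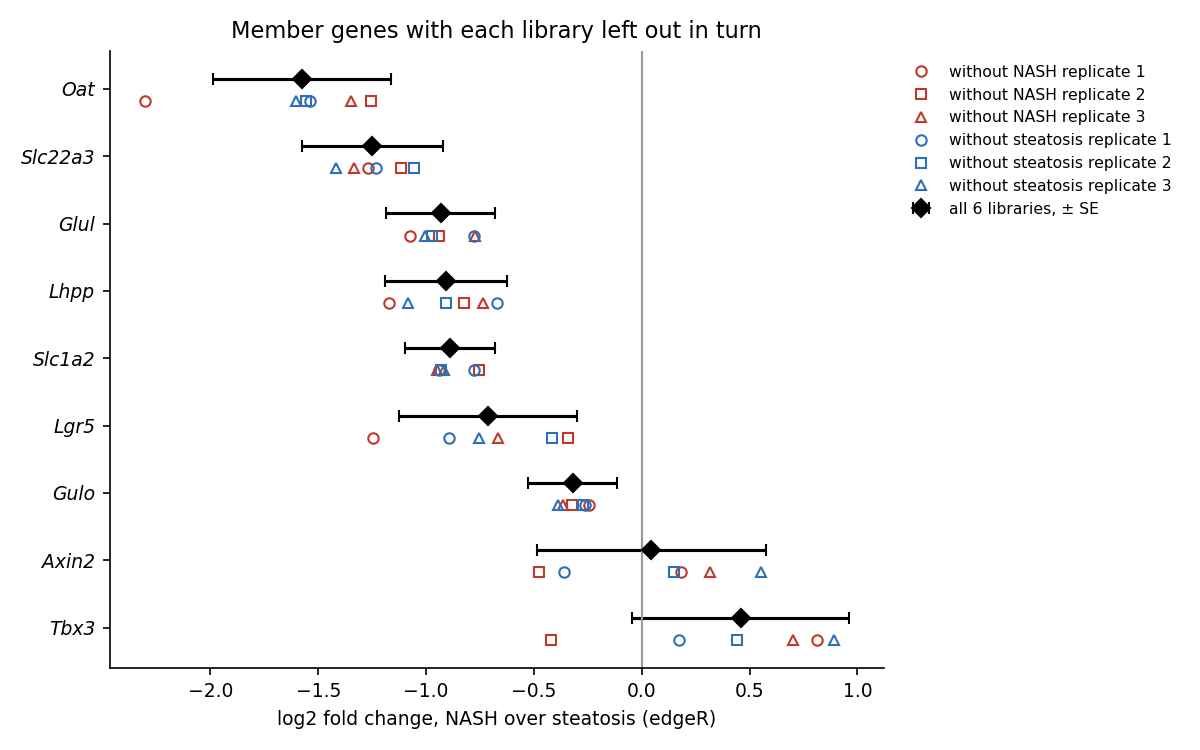
Log2 fold change of NASH over steatosis (x axis) for the 9 measured genes (y axis), from edgeR with all 6 libraries (black diamonds, bars ± SE) and with each library left out in turn (open symbols, red for a NASH library and blue for a steatosis library). Oat moves to -2.30 without NASH 1, and Axin2 and Tbx3 cross 0 while the other 7 genes remain below it.

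Lgr5, Axin2 and Tbx3 are targets of WNT and β-catenin signalling in many tissues, and in the liver they mark the hepatocytes nearest the central vein. All 3 were expressed at low levels and varied as much within a group as between groups. None passed edgeR's quasi-likelihood test.

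Lgr5 encodes a receptor for R-spondins that sustains WNT signalling at the cell surface, and it lies on chromosome 10 (115450311 to 115587780, minus strand). It was counted 42, 13 and 19 times in NASH 1, 2 and 3, against 34, 70 and 75 times in steatosis 1, 2 and 3. In CPM this was 2.92, 0.871 and 1.73 in NASH and 2.09, 4.20 and 2.78 in steatosis. NASH 1 was above 2 of the steatosis livers, so the groups overlapped. Lgr5 had a log2 change of -0.71 (SE 0.41) with an edgeR adjusted p of 0.333, and it lay between -0.34 without NASH 2 and -1.25 without NASH 1. No difference in Lgr5 was detected in these libraries.

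Axin2 encodes a scaffold of the complex that destroys β-catenin and is a widely used readout of the pathway, which it restrains in turn. The gene lies on chromosome 11 (108920349 to 108950783, plus strand). Its counts were 27, 55 and 14 in NASH 1, 2 and 3, against 10, 43 and 91 in steatosis 1, 2 and 3. The levels of 1.88, 3.68 and 1.27 CPM in NASH lay inside the spread of the steatosis livers (0.616, 2.58 and 3.38 CPM) except for NASH 2. The fitted log2 change was 0.04 (SE 0.53, adjusted p = 0.971 in edgeR), and its sign turned to -0.48 without NASH 2 and to -0.36 without steatosis 1. Axin2 alone among the 9 genes missed the low-count cutoff of 0.613 CPM (before TMM scaling) in 1 library, a steatosis one.

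Tbx3 encodes a T-box transcription factor, here on chromosome 5 (119670669 to 119684724, plus strand). It reached 4.24, 17.9 and 5.90 CPM in NASH 1, 2 and 3, against 3.63, 6.65 and 10.02 CPM in steatosis 1, 2 and 3. NASH 2 was far above the other livers, and the remaining NASH values lay within the steatosis range. Its log2 change of 0.46 (SE 0.50, adjusted p = 0.63 in edgeR) became -0.42 without NASH 2. Both Axin2 and Tbx3 had their highest NASH value in NASH 2, the liver with the lowest Lgr5 and Oat levels. Exons of Tbx3, Axin2, Slc1a2 and Glul share 115, 209, 189 and 116 bases with genes on the opposite strand. These are Tbx3os1, Gm11670, Gm13872 and Teddm2, each of which had at most 4 counts in any library. Glul also shares 93 bases with Mir8114 on its own strand, which had 0 counts in every library.

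The remaining genes have separate roles. Lhpp encodes a phosphatase that removes phosphate from histidine in proteins and lies on chromosome 7 (132610638 to 132706420, plus strand), not far from Oat. It measured 31.2, 21.1 and 17.6 CPM in NASH 1, 2 and 3, against 56.4, 43.7 and 31.2 CPM in steatosis 1, 2 and 3. The groups were separate only in name, since NASH 1 (31.195 CPM) and steatosis 3 (31.202 CPM) were all but equal. The mean was 23.3 ± 7.05 CPM in NASH and 43.8 ± 12.6 CPM in steatosis (SD, n = 3 each), a log2 fold change of -0.91 (SE 0.28) with an edgeR adjusted p of 0.0908. DESeq2 called it with an adjusted p of 0.0319, within a range of 0.00664 to 0.365 over the 16 alternatives.

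Slc22a3 encodes an organic cation transporter that moves monoamines and drugs such as metformin across the membrane. The gene lies in the imprinted Igf2r region of chromosome 17 (12418960 to 12507704, minus strand). Only 14, 12 and 12 reads were counted in NASH 1, 2 and 3, against 37, 48 and 46 in steatosis 1, 2 and 3. This gave 0.973, 0.804 and 1.09 CPM in NASH and 2.28, 2.88 and 1.71 CPM in steatosis, with every NASH liver below every steatosis liver. For Slc22a3 the log2 change was -1.25 (SE 0.33) with an edgeR adjusted p of 0.0558, and -1.05 to -1.42 with each library left out in turn. Of its 4513 exon bases, 420 are shared with Plg on the opposite strand. Plg, the plasminogen gene, had 176 to 272 CPM in NASH and 179 to 225 CPM in steatosis (log2 fold change 0.02, adjusted p = 0.966 in edgeR). The strand setting of the counting is not given in the sources used here, so the share of Slc22a3 reads that came from Plg was not tested.

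Gulo encodes gulonolactone oxidase, the last enzyme of vitamin C synthesis, which mice have and humans lack. It lies on chromosome 14 (65986786 to 66009207, minus strand). Its level was 47.0, 54.2 and 56.3 CPM in NASH 1, 2 and 3, against 69.6, 69.8 and 57.1 CPM in steatosis 1, 2 and 3. The groups did not overlap, but NASH 3 and steatosis 3 were close. The mean was 52.5 ± 4.89 CPM in NASH and 65.5 ± 7.25 CPM in steatosis (SD, n = 3 each). The fitted log2 change was -0.32 (SE 0.21, adjusted p = 0.389 in edgeR) and stayed between -0.21 and -0.39 under the 16 alternatives, none of which called it.

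Divided by exon length, levels covered a wide range. In NASH livers the order was Glul (45.8 CPM per kb), Oat (44.4), Gulo (23.2), Lhpp (9.64), Slc1a2 (2.30), Tbx3 (1.41), Axin2 (0.413), Slc22a3 (0.212) and Lgr5 (0.179). Neighbours in that order overlapped in their ranges except Gulo with Lhpp and Lhpp with Slc1a2. In steatosis livers the order was Oat (132 CPM per kb), Glul (87.4), Gulo (28.9), Lhpp (18.1), Slc1a2 (4.25), Tbx3 (1.02), Slc22a3 (0.507), Axin2 (0.398) and Lgr5 (0.295). There the ranges of neighbours were apart from Oat down to Tbx3 and overlapped from Tbx3 to Lgr5. Oat stood clear of Glul in steatosis livers, while in NASH livers the ranges of Oat (23.4 to 79.7 CPM per kb) and Glul (35.7 to 54.4 CPM per kb) overlapped.

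The neighbours of Glul in nitrogen metabolism showed no common direction. Of 20 genes of ammonia, glutamine and glutamate handling, 18 were tested. edgeR called 2 higher in NASH and 0 lower, against 1.49% and 3.33% of all genes. DESeq2 called 2 higher and 1 lower, against 2.94% and 5.47% of all genes. The log2 fold change was positive for 11 and negative for 7. Its median was 0.11, and -0.18 without NASH 3 and steatosis 2. Slc1a1 and Rhcg were at 0 counts. Slc38a3 encodes the glutamine transporter SNAT3, which carries glutamine in and out of hepatocytes. It had 709, 819 and 799 CPM in NASH 1, 2 and 3, against 205, 273 and 308 CPM in steatosis 1, 2 and 3. All NASH livers were above all steatosis livers by a wide margin, and the log2 fold change of 1.57 (SE 0.25) had an edgeR adjusted p of 0.0121. Without steatosis 2 the adjusted p of Slc38a3 was 0.0666, and without NASH 3 and steatosis 2 it was 0.117, at log2 fold changes of 1.596 and 1.57.

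Gls2 encodes the liver glutaminase, the periportal enzyme that splits glutamine. It had 35.0, 73.1 and 56.8 CPM in NASH 1, 2 and 3, against 15.7, 25.1 and 21.2 CPM in steatosis 1, 2 and 3. Gls2 was thus called higher in the NASH livers, at a log2 change of 1.41 (SE 0.29, adjusted p = 0.0278 in edgeR). The Gls2 call was lost on leaving out NASH 2 (adjusted p = 0.0737), NASH 3 (0.0601), steatosis 1 (0.108), steatosis 2 (0.0721) or steatosis 3 (0.0534), and without NASH 3 and steatosis 2 (0.133), at log2 fold changes of 1.17 to 1.57. Gls2 shares exon positions with Spryd4 on the opposite strand. Glud1, glutamate dehydrogenase, was at 128, 124 and 113 CPM in NASH and 137, 165 and 128 CPM in steatosis and was not called (adjusted p = 0.557 in edgeR). The urea cycle genes Arg1 (log2 fold change 0.32) and Otc (-0.18) were not called either.

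The ratio of Glul to Gls2 within a library does not depend on the scaling between libraries; it was chosen after the values of both genes were seen. It was 5.17, 2.15 and 2.08 in NASH 1, 2 and 3, against 22.0, 10.9 and 11.9 in steatosis 1, 2 and 3. Every NASH liver had fewer Glul counts per Gls2 count than any steatosis liver. This separation follows from the levels above, with Glul lower and Gls2 higher in every NASH liver, so it is no separate evidence. The mean log2 ratio was 1.51 ± 0.744 in NASH and 3.82 ± 0.551 in steatosis (SD, n = 3 each), a difference of -2.31. No p is given, since the ratio was built from values already seen. With each library left out in turn the difference lay between -1.999 and -2.74.

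**Figure D3:**
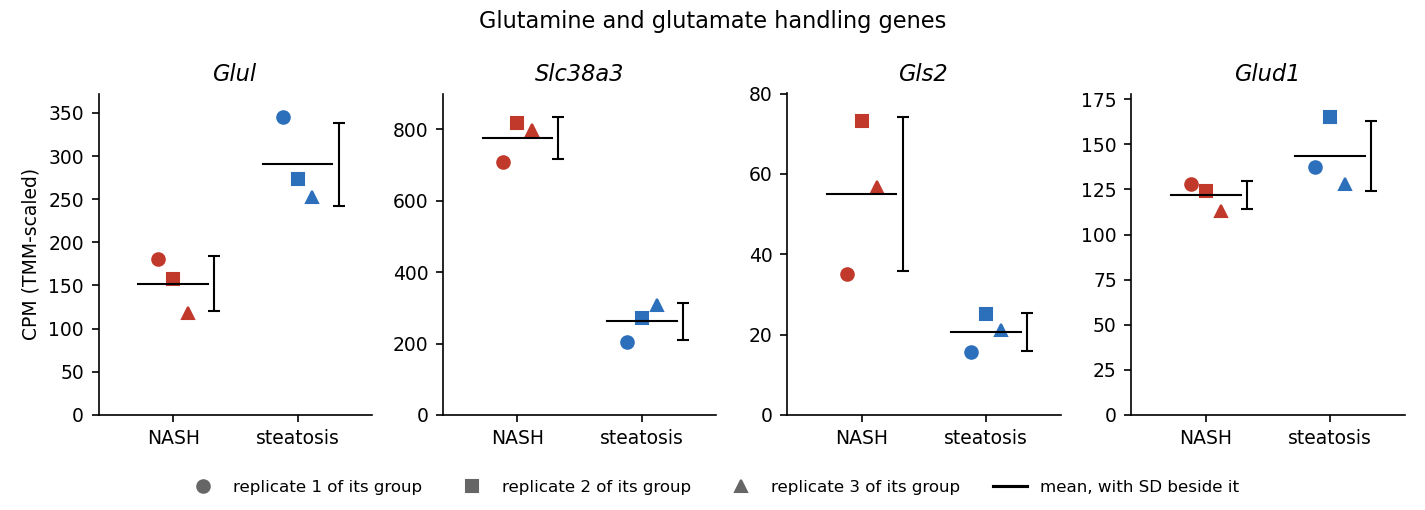
Level in CPM on TMM-scaled library sizes (y axis, linear, from 0) of Glul, the glutamine transporter Slc38a3, the glutaminase Gls2 and the glutamate dehydrogenase Glud1 in each liver, NASH left and steatosis right. Lines are means and bars ± SD over 3 livers. Glul is lower in all 3 NASH livers, Slc38a3 and Gls2 are higher in all 3, and Glud1 differs little.

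Around the other metabolic genes, few neighbours were called. Of 15 listed genes of ornithine and proline metabolism, the pathway of Oat, 12 were tested and edgeR called 0 in either direction. At an unadjusted p under 0.05 in edgeR there were 2, against 10.2% of all tested genes higher and 12.9% lower. DESeq2 called 1 of the listed genes lower, against 5.47% of all genes, and limma-voom 0. The median log2 fold change of the tested genes of this pathway was 0.15. In ascorbate synthesis, the pathway of Gulo, edgeR called 1 of 7 genes, lower, against 3.33% of all genes. That gene was Akr1a1, an aldehyde reductase that makes the gulonate from which Gulo's substrate is formed, at 41.6, 34.3 and 35.3 CPM in NASH, against 78.0, 78.3 and 80.7 CPM in steatosis (log2 fold change -1.09, adjusted p = 0.0181 in edgeR). The Akr1a1 call was lost without NASH 2 (adjusted p = 0.0631), NASH 3 (0.0565), steatosis 1 (0.0602) or steatosis 2 (0.0742) and without NASH 3 and steatosis 2 (0.159). Ugdh, which forms the glucuronate precursor, lay at a log2 change of -0.51 (adjusted p = 0.12 in edgeR), and Rgn, the lactonase before Gulo, one of -0.23 (0.665).

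Among organic cation transporters and Igf2r neighbours of Slc22a3, 5 of 8 genes were tested. edgeR called 0 of them, with 2 at an unadjusted p under 0.05, against 10.2% of all tested genes higher and 12.9% lower. DESeq2 called 1 of the listed genes lower, against 5.47% of all genes, and limma-voom 0. Igf2r itself had a log2 fold change of -0.30 and was not called, and Slc22a2 had 1 count in all, in NASH 2.

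The WNT pathway genes upstream of the pericentral programme showed no common direction. Of 8 WNT ligands and R-spondins, 5 were tested and edgeR called 1, lower, against 3.33% of all genes, with a median log2 fold change of -0.02 that became 0.09 on the library size of other genes without TMM. Wnt2 and Wnt9b, the ligands known from central vein endothelium, had log2 changes of 0.35 (adjusted p = 0.723 in edgeR) and 0.81 (0.213), and Rspo3 one of -0.06 (0.95). All 3 lay below 2 CPM in every liver. Wnt5b, a ligand of the branch that does not act through β-catenin, was called lower at 1.11, 1.54 and 2.45 CPM in NASH, against 2.90, 5.09 and 6.46 CPM in steatosis (log2 fold change -1.54, adjusted p = 0.0433 in edgeR). The Wnt5b call was lost without NASH 1 (adjusted p = 0.121), NASH 2 (0.122), steatosis 2 (0.118) or steatosis 3 (0.0957) and without NASH 3 and steatosis 2 (0.119), and limma-voom did not call the gene.

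Of 11 WNT receptors and turnover factors, edgeR, DESeq2 and limma-voom called 0. At an unadjusted p under 0.05 in edgeR there was 1, against 10.2% of all tested genes higher and 12.9% lower. The median log2 fold change of these 11 genes was -0.28. Rnf43 and Znrf3, ligases that remove WNT receptors and are themselves targets of the pathway, had values of -0.28 and -0.54, and the R-spondin receptor Lgr4 one of 0.00. Of 17 β-catenin transducers 16 were tested, and 0 were called by edgeR, DESeq2 or limma-voom, with 0 at an unadjusted p under 0.05 in edgeR. Their median was 0.00. Ctnnb1, β-catenin itself, which shares exon positions with Ulk4 on the opposite strand, had 6.88, 9.71 and 8.81 CPM in NASH, against 8.93, 9.35 and 9.65 CPM in steatosis (log2 fold change -0.14, adjusted p = 0.717 in edgeR). Tcf7l2, its main DNA-binding partner in liver, lay at a log2 change of 0.22 (0.554). Of 13 further WNT targets and inhibitors 9 were tested and 0 were called by any of the 3 tools, with 1 at an unadjusted p under 0.05 in edgeR. Their median log2 fold change of -0.03 became 0.10 without TMM and 0.45 without NASH 3 and steatosis 2. Nkd1, a feedback inhibitor, stood at -0.03, so that like Axin2 and Lgr5 it gave no call.

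The other zonal genes were set beside the 9 as a comparison. Of 15 further pericentral genes that are not P450s, edgeR called 6 lower in NASH and 0 higher, against 3.33% and 1.49% of all genes, with a median log2 fold change of -0.65. The 4 with the smallest p were Csad of taurine synthesis (-1.64), the retinaldehyde dehydrogenase Aldh1a1 (-1.91), the nuclear receptor Nr1i3 (-2.35) and the fatty aldehyde dehydrogenase Aldh3a2 (-1.67). Nr1i3 shares exon positions with Tomm40l and Csad with Zfp740, each on the opposite strand. With each library left out in turn 4 to 6 of the 15 were called, and 2 without NASH 3 and steatosis 2. All 9 pericentral P450 genes lay lower in every NASH liver than in any steatosis liver, against 16.2% of all tested genes. edgeR called 8 of the 9 lower, against 3.33% of all genes, and the median of the 9 was -1.29. Cyp7a1 (-2.39), Cyp3a11 (-2.70), Cyp2c29 (-1.37) and Cyp2a5 (-2.12) had the smallest p, and Cyp2e1 and Cyp1a2 showed -1.16 and -1.09. The count of called P450 genes was 3 without NASH 1, 4 without NASH 2, NASH 3, steatosis 1 or steatosis 2, 7 without steatosis 3, and 0 without NASH 3 and steatosis 2. Reads of near-identical Cyp2a and Cyp2c copies may have been split between them or left uncounted, which was not tested.

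Of 17 periportal genes, edgeR called 2 higher in NASH and 0 lower, against 1.49% and 3.33% of all genes, at a median log2 fold change of 0.34. DESeq2 called 4 higher, against 2.94% of all genes, and limma-voom 2, against 1.4%. Both tools called 0 periportal genes lower. The 2 genes that edgeR called were Gls2 and the serine dehydratase Sds (log2 fold change 1.62, adjusted p = 0.0457 in edgeR). Sds shares exon positions with Plbd2 on the opposite strand. The edgeR count was 2 without NASH 1 and 0 without any other single library. It was 0 with a median of 0.11 without NASH 3 and steatosis 2. Cyp2f2, a periportal P450, was not called (log2 fold change 0.34). No test of the difference between these lists was made.

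**Figure D4:**
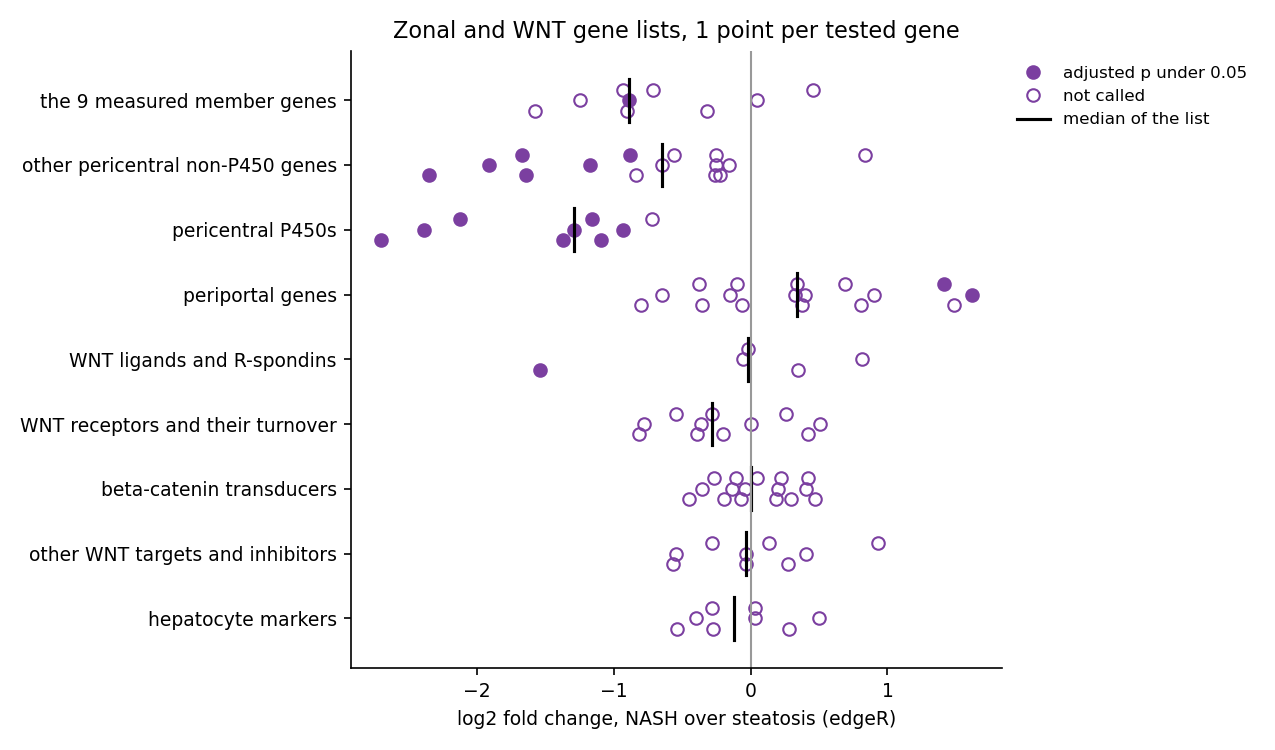
Log2 fold change of NASH over steatosis (x axis, edgeR) for each tested gene (1 point each) of 9 gene lists (y axis), with called genes filled and list medians as vertical bars. The 9 measured genes have a median of -0.89, the other pericentral genes -0.65, the pericentral P450s -1.29 and the periportal genes 0.34, while the medians of the WNT lists lie between -0.28 and 0.00.

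Markers of the other liver cells differed in places between the groups. The 7 sinusoidal endothelial markers summed to 93.4 to 131 CPM in NASH and 65.7 to 85.8 CPM in steatosis, without overlap. edgeR called 0 of them, with 3 at an unadjusted p under 0.05, against 10.2% of all tested genes higher and 12.9% lower. DESeq2 called 1 marker higher, against 2.94% of all genes, and limma-voom 0. The stellate cell markers summed to 32.0 to 36.2 CPM in NASH and 45.4 to 47.4 CPM in steatosis, with 1 of 6 tested genes called lower, against 3.33% of all genes. This was Dcn (decorin, log2 fold change -1.03, adjusted p = 0.0348 in edgeR). The Dcn call was lost on leaving out any 1 library, at adjusted p values of 0.0584 to 0.115. Of the 6 tested stellate cell markers, 3 had a positive and 3 a negative log2 fold change, with a median of -0.07. Cholangiocyte markers summed to 12.4 to 23.4 CPM in NASH and 24.1 to 42.4 CPM in steatosis. Of these 6 markers 3 were tested, and 0 were called by edgeR (1 at an unadjusted p under 0.05), DESeq2 or limma-voom. In edgeR 1 had a positive and 2 a negative log2 fold change. Kupffer cell markers summed to 26.7 to 59.6 CPM in NASH and 29.2 to 34.6 CPM in steatosis and overlapped. All 6 Kupffer cell markers had a positive log2 fold change, with a median of 0.45, where 49.4% of all tested genes had a negative one. Of the 6, 0 were called by edgeR (1 at an unadjusted p under 0.05), DESeq2 or limma-voom. Central vein endothelial markers also overlapped, at 3.75 to 5.63 CPM in NASH and 2.40 to 5.38 CPM in steatosis. Lymphocyte markers were below 2 CPM in sum in every liver, with Gzma at 0, and none was tested. Of the 8 hepatocyte markers edgeR, DESeq2 and limma-voom called 0, with 0 at an unadjusted p under 0.05 in edgeR, and their median log2 fold change was -0.12. The part of these shifts in cell markers, and of the rRNA-like reads of NASH 3 and steatosis 2, in the values of Glul, Oat, Slc1a2 and the other genes was not tested.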

How the data were processed

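For each of 6 libraries the authors deposited whole-number counts of reads by gene, with no normalization. Per the labels, polyadenylated RNA was sequenced in pairs on an Illumina HiSeq instrument. TopHat2, HTSeq and the mm10 (GRCm38) genome are named, without tool versions, per the submitters' processing notes. The sources used here give neither the annotation release nor the strand setting. Library totals were 13909238 to 18002095 counts.

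The genes and all lists were chosen with earlier results of these data known. Symbols were matched for 37607 of 39179 identifiers, and positions and exon lengths are from GENCODE M21. In R 4.3.3 with edgeR 4.0.16, genes were filtered with filterByExpr (minimum count 10), scaled with TMM and tested by the quasi-likelihood test over 11375 genes at a Benjamini-Hochberg adjusted p under 0.05. The standard error was taken from the log2 fold change and its F statistic. For single values per library, an exact permutation test (two-sided) over libraries was used. The share of mitochondrial counts was 75.9% ± 12.1 in NASH and 72.3% ± 5.00 in steatosis (SD, n = 3 each), with an exact permutation p of 0.8 where 0.1 is the lowest that can be reached. Pairs of libraries within a group differed by more than sampling noise, at 34.0 to 378 chi-square units per degree of freedom.

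The genes named were all those chosen, whatever their result, up to 4 called genes with the smallest p of each other list, and a panel named for its roles. Some of these are not reported here. Exon overlaps are described for some of the named genes and not for all. Genes singled out after their values were seen are described as such. The alternatives were DESeq2 1.42.0, limma-voom (limma 3.58.1), other scalings, no filter or a stricter one (1 CPM in 3 libraries), the replicate number as a block, libraries left out and other thresholds.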

Additional observations from a re-analysis of the deposited data

How the results depend on the processing

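All values below are for NASH against steatosis. The direction of Glul, Oat, Slc1a2, Lgr5, Lhpp, Slc22a3 and Gulo was lower in NASH under all 16 alternatives; that of Axin2 turned without NASH 2 (-0.48) and without steatosis 1 (-0.36), and that of Tbx3 without NASH 2 (-0.42). With each library left out in turn, Axin2 ranged from -0.48 to 0.55 and Tbx3 from -0.42 to 0.89. Of the 9 genes, 1 was called lower in the test as described, 4 with DESeq2, 3 with limma-voom and 5 with no filter. The number was 0 on the library size of other genes without TMM and 0 without steatosis 2 and NASH 3. It was 0 to 1 with each library left out, 5 at an adjusted p under 0.1 and 0 under 0.01. The numbers over all tested genes under these settings follow. Genes called higher over all tested genes numbered 169 of 11375. The number was 300 of 10192 with DESeq2, 535 of 19803 with no filter and 17 of 11627 without steatosis 2 and NASH 3. It was 29 to 170 with each library left out, where 11478 to 11865 genes were tested. At an adjusted p under 0.1 it was 445 of 11375, and under 0.01 it was 19. Genes called lower numbered 379 of 11375, with 558 of 10192 under DESeq2 and 369 of 11375 under limma-voom. On the library size of other genes without TMM they numbered 222 of 11268, and with no filter 912 of 19803. Without steatosis 2 and NASH 3 they numbered 19 of 11627, and with each library left out 77 to 298. At an adjusted p under 0.1 they numbered 784 of 11375, and under 0.01 they numbered 41. On the library size of other genes without TMM the median of all genes lay 0.11 higher on the log2 scale than in the test as described. There 55.5% of calls were lower, against 67.3% on the same library size with TMM, 69.2% in the test as described and 52.8% without steatosis 2 and NASH 3. The cause of these shifts was not tested. Where libraries were left out, the number of libraries was also smaller. The difference in mitochondrial share, 3.61 percentage points, was -0.41 to 10.6 with each library left out and 8.59 without both libraries, an alternative chosen after seeing the data, as was that for the ratio of Glul to Gls2 (-2.28 without both).

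Same-numbered livers did not deviate together (correlations of 0.03, -0.01 and 0.07 for numbers 1, 2 and 3, and not every liver correlated best with its own number), so the numbers are not taken as a pairing. With the replicate number as a block, 2 of the 9 genes were called lower, Oat and Lhpp, and Slc1a2 was not (edgeR adjusted p = 0.0545); over all genes 153 were higher and 313 lower. Lgr5, Axin2 and Slc22a3 had 10 to 91 counts per library, the lowest of the 9 genes.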
